A study of Drosophila melanogaster with 3 samples.

Results

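The 73 protein-coding genes named mRpL or mRpS in the fly annotation, the genes for the proteins of the mitochondrial ribosome, were examined for binding of the homeodomain protein Labial (Lab) at their promoters. They were chosen by name alone, with no measured value, from 13945 protein-coding genes on the 6 chromosome arms with peaks. They comprise 47 genes named for the large subunit (mRpL) and 26 named for the small subunit (mRpS). The subunit was taken from the name throughout, and the place of each protein in the ribosome was not checked. The other 13872 protein-coding genes served as the comparison. Embryos collected from 0 to 24 h, both sexes pooled, came from a transgenic line that stably carries Lab with GFP at its C-terminus, and chromatin sheared by sonication to 200 to 800 bp was precipitated with an antibody to GFP and sequenced (ChIP-seq). There was 1 group, Lab-GFP embryos, with 3 biological replicates, and every peak list had been called against the same control alignment. Embryos without the fusion protein were not analysed here, so binding of Lab itself and signal from the tag, the antibody or open chromatin cannot be told apart. Whole embryos of mixed age were used, so a peak gives no cell type or stage.

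Mitochondrial ribosomes translate the few proteins encoded by mitochondrial DNA, which are core parts of the respiratory chain. Their protein components are encoded in the nucleus, made in the cytosol and imported. Some have counterparts in bacterial ribosomes, and others are found only in mitochondria. Lab is the most anterior Hox protein of the fly and is known for its roles in the head and in the copper cells of the midgut. In head-to-head pairs, also called divergent promoters, 2 genes are transcribed in opposite directions from starts that lie close together.

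A promoter was called bound when the summit of a peak in the reproducible list lay within 500 bp of an annotated transcript start. That list holds the 10160 peaks that the authors kept from all 3 replicates by the irreproducible discovery rate, a measure of how well peak ranks hold between replicates. Peaks were ranked by their signal value, with rank 1 the strongest; the values below are the authors' own for each peak, and the sources used here do not give their scale. The lists hold no read counts, so the depth behind them is unknown.

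At 20 of the 25 bound mRp genes the strongest summit lay in the short stretch between the facing starts of the mRp gene and its head-to-head neighbour. The sequences between the 2 starts are shown for the 3 strongest bound pairs on arms 2L, 3L, 3R and X whose starts lie 100 to 300 bp apart (mRpS10, mRpS2 and mRpL24; mRpL23, with a gap of 24 bp, is left out), for mRpL39 as a promoter with DRE sites, for mRpL21 as one with an E-box, and for mRpL32, whose peaks are described further on. They were picked after their values were known. For mRpS23, whose starts lie 492 bp apart, 99 bases on each side of the summit are shown. All are from the RefSeq copy of the Release 6 genome (dm6), on the coding strand of the mRp gene, so that the partner's start lies just before the first base and the mRp start just after the last, mRpS23 excepted. Capitals mark the E-box CAGCTG, the DRE TATCGATA, the GATA site AGATAA and TAATTA on either strand; the DRE holds the shorter DRE core ATCGAT. No match was found in these stretches for GGTCACAC, CACGTG or TGATNGAT, the last a form of the composite site of Lab and its partner Exd.
mRpS23: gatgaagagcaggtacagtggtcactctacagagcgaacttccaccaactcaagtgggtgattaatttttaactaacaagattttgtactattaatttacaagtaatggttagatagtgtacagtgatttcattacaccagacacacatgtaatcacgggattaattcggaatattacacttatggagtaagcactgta
mRpS10: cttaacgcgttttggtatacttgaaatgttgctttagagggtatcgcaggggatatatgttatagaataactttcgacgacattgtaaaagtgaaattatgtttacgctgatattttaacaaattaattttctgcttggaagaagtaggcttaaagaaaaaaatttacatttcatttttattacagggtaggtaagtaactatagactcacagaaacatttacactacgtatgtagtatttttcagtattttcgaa
mRpS2: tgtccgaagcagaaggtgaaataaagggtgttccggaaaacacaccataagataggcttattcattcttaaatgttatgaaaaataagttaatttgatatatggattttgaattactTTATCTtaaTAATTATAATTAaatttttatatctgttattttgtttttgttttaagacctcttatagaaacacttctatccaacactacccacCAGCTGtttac
mRpL24: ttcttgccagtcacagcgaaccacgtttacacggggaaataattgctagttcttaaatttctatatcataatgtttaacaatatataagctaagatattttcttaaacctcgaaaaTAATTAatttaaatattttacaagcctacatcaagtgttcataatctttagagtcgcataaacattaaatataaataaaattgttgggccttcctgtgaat
mRpL39: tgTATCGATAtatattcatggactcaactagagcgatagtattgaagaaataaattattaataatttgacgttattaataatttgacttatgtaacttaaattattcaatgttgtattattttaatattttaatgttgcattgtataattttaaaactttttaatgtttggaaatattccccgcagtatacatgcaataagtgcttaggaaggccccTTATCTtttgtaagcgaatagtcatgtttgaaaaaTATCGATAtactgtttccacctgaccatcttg
mRpL21: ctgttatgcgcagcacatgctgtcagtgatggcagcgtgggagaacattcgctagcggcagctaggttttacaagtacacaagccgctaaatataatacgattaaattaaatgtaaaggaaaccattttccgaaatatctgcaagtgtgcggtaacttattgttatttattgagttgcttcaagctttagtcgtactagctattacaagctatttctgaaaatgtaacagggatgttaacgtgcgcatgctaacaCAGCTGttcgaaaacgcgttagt
mRpL32: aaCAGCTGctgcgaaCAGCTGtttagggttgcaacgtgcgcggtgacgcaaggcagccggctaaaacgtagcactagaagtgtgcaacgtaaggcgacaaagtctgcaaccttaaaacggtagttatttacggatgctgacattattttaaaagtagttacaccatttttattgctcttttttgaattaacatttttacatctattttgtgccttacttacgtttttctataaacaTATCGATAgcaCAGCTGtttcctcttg

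The mRpS23 stretch is chr2L:13835365-13835563 on the minus strand, upstream of mRpS23 and of CenG1A, and its summit is base 100. The mRpS10 stretch is chr3R:15229409-15229664 on the plus strand with the summit at base 121. The mRpS2 stretch is chr2L:4850420-4850640 on the minus strand with the summit at base 74. The mRpL24 stretch is chr2L:4945362-4945578 on the minus strand with the summit at base 87. The mRpL39 stretch is chr3L:14999667-14999950 on the minus strand with the summit at base 172, and the mRpL21 stretch is chr3L:19255062-19255339 on the minus strand with the summit at base 77. The mRpL32 stretch is chr3R:31252609-31252871 on the plus strand. In the sequences of mRpS23 and mRpS10, the 2 strongest shown, none of the capitalised motifs occurred. For mRpS23 this holds only for the stretch printed, since a DRE lay within 200 bp of its summit. Windows of 201 bases around the 25 member summits had a median A plus T content of 67.7%, from 44.8% to 74.1%, against a median of 60.7% in 2802 windows at the other promoter summits.

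Of the 73 mRp genes, 25 had a promoter peak, or 34.2%, against 3533 of the other 13872 genes, or 25.5%. When each replicate's own list was cut to its strongest 10160 peaks, 31, 27 and 30 mRp genes were bound in replicates 1, 2 and 3. These are 42.5%, 37.0% and 41.1% of the mRp genes, against 28.1%, 24.7% and 26.4% of the other genes. The mean was 40.2% ± 2.85 for mRp genes and 26.4% ± 1.74 for the others (SD, n = 3), and the ranges did not overlap. The 3 replicates measure the same genes, so this spread does not show how far the choice of genes matters. A head-to-head partner within 500 bp was more frequent among mRp genes, at 72.6% against 27.1%, and these shares were not matched for it. The shares by partner are given below. No test was made over the members, since genes are not replicates of a condition. In the whole pooled list of 30000 peaks and background regions the shares came closer, at 29 mRp genes or 39.7%, against 38.1% of the others. With a window of 250 bp they came closer too, at 17 mRp genes or 23.3%, against 20.8% of the others. Among the peaks called, 22 of 25 mRp promoters had a summit within 100 bp among the strongest 10160 of all 3 replicates, or 88.0%, against 73.8% of the others; over all genes of the 2 lists these were 30.1% and 18.8%.

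**Figure D1:**
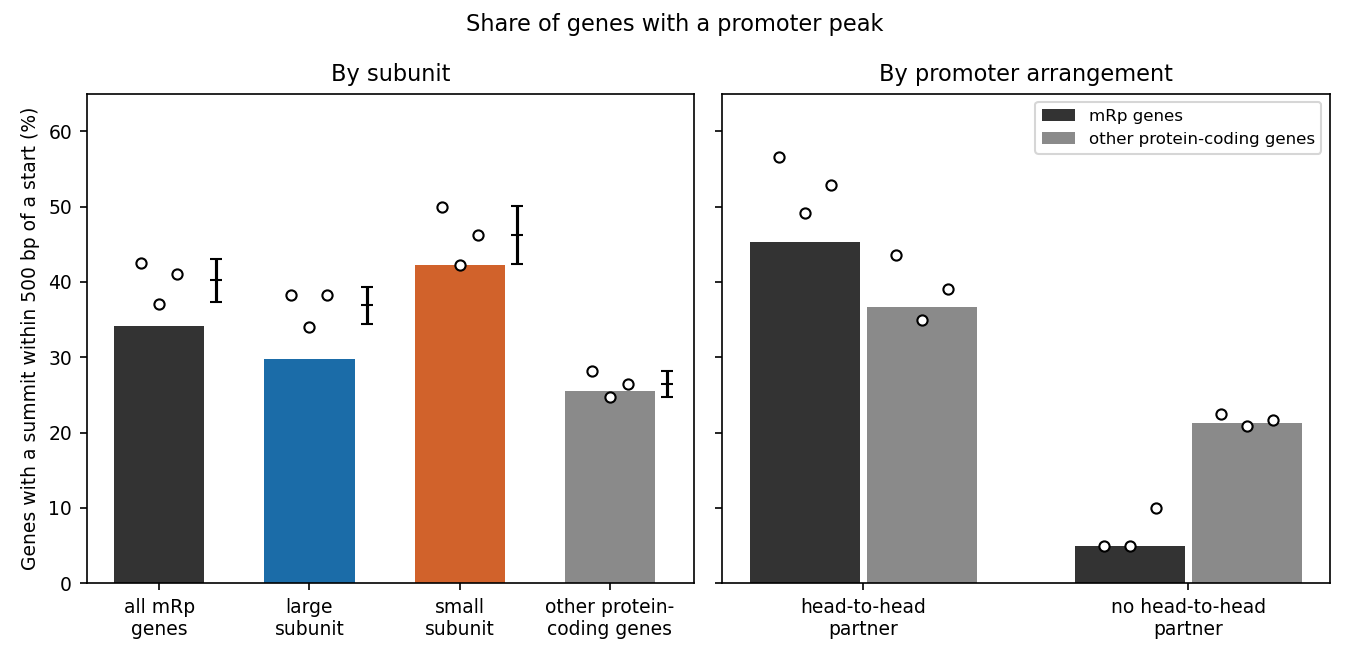
Share of genes with a peak summit within 500 bp of a start (%). Bars show the pooled reproducible list, open points the strongest 10160 peaks of each of the 3 replicates, and the lines at their right the mean ± SD of the points. Left, mRp genes lay at 37.0% to 42.5% in the replicates and the other genes at 24.7% to 28.1%; right, the same genes split by whether they have a head-to-head partner within 500 bp.

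Of the large subunit genes 14 of 47 were bound, or 29.8%, and of the small subunit genes 11 of 26, or 42.3%. In the replicates' own lists 18, 16 and 18 large subunit genes and 13, 11 and 12 small subunit genes had a summit. The means were 36.9% ± 2.46 for the large subunit and 46.2% ± 3.85 for the small subunit (SD, n = 3). The order of the subunits did not hold at 250 bp, where 11 large subunit genes, or 23.4%, and 6 small subunit genes, or 23.1%, were bound, beside 20.8% of the other genes. Members were also grouped, after their values were known, by whether the protein has a counterpart in bacteria under the naming used for mammalian mitochondrial ribosomes. Promoter peaks were found at 17 of 44 genes with a bacterial counterpart, or 38.6%, and at 8 of 29 mitochondria-specific ones, or 27.6%, beside 25.5% of the other protein-coding genes. The share of the mitochondria-specific genes was near that background. By subunit, the genes with a counterpart and the mitochondria-specific ones stood at 34.5% and 22.2% in the large subunit and at 46.7% and 36.4% in the small subunit, with no test of the difference. On the X chromosome 1 of 11 members was bound, or 9.09%, against 25.6% of the other X genes, whereas on 2R 6 of 12 members were bound, against 24.5% of the other 2R genes. On 2L 5 of 12 were bound, or 41.7% against 24.4%, and on 3L 8 of 17, or 47.1% against 28.1%. On 3R, with the most members, 5 of 21 were bound, or 23.8% against 25.4%.

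Most members lay head to head with another gene. A partner within 500 bp was found for 53 of 73 mRp genes, or 72.6%, against 27.1% of the other genes. No 2 mRp genes were paired with each other, and no summit lay within 500 bp of 2 of them. The gap between the starts had a median of 264 bp for the mRp pairs and 244 bp for the pairs of other genes. Of the 53 mRp genes with a partner 24 were bound, or 45.3%, against 36.7% of other genes with a partner. Of the 20 without a partner 1 was bound, against 21.3% of other genes without one; that gene was mRpL41. In the replicates' own lists 30, 26 and 28 of the 53 and 1, 1 and 2 of the 20 had a summit. For the 53 these are 56.6%, 49.1% and 52.8%. Among other genes the shares were 43.5%, 34.9% and 39.0% with a partner and 22.4%, 20.9% and 21.7% without. The contrast depended on the limit for a partner, since with starts at most 250 bp apart 9 of 25 members with a partner and 16 of 48 without were bound. Among other genes at that limit the shares were 32.4% with a partner and 24.3% without. By construction a gene with a partner is also counted for a peak at the partner's start where that start lies in the window.

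All 24 bound members with a partner shared their strongest summit with it, and 20 of these summits lay between the closest facing starts of the pair, or 83.3%, against 60.2% for other bound genes with a partner. The 4 outside were mRpL11, mRpL18, mRpL23 and mRpL33. When any facing starts up to 500 bp apart were allowed, the shares were 91.7% and 71.9%. The summit was nearer to the partner's start at 18 of the 24, or 75.0%, against 49.5% of the 1201 other bound genes that shared a summit with a partner. Hence 7 of the 25 strongest summits had the mRp gene as the nearest start, or 28.0%, against 80.8% for the other bound genes. Ties count as nearest here, and at mRpL53 a start of CG33155 was equally near. These shares, and the comparisons in the rest of this paragraph, were not matched for partners. A partner was present at 24 of the 25 bound members, but at only 1379 of the 3533 other bound genes. When each summit was given to its nearest gene only, 7 mRp genes were bound, or 9.59%, against 21.2% of the other genes, so that the mRp share then lay below that of the other genes. Which gene of a pair a peak acts on cannot be told apart from these data. The summits lay a median of 202 bp from the nearest start of the mRp gene, against 131 bp for the other bound genes, and 24 of 25 lay upstream of it, or 96.0% against 78.5%. The widest distances inside the window were 424 bp at mRpL33 and 392 bp at mRpS23, and the nearest summits outside it lay 670 bp from mRpL2 and 709 bp from mRpL55. All these distances are to reproducible summits. At mRpL54, mRpS31, mRpS6, mRpL17, mRpS22 and mRpS26 the whole pooled list, which includes background regions, held a further, weaker summit nearer the mRp start. It lay 3, 12, 39, 48, 53 and 60 bp from that start.

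**Figure D2:**
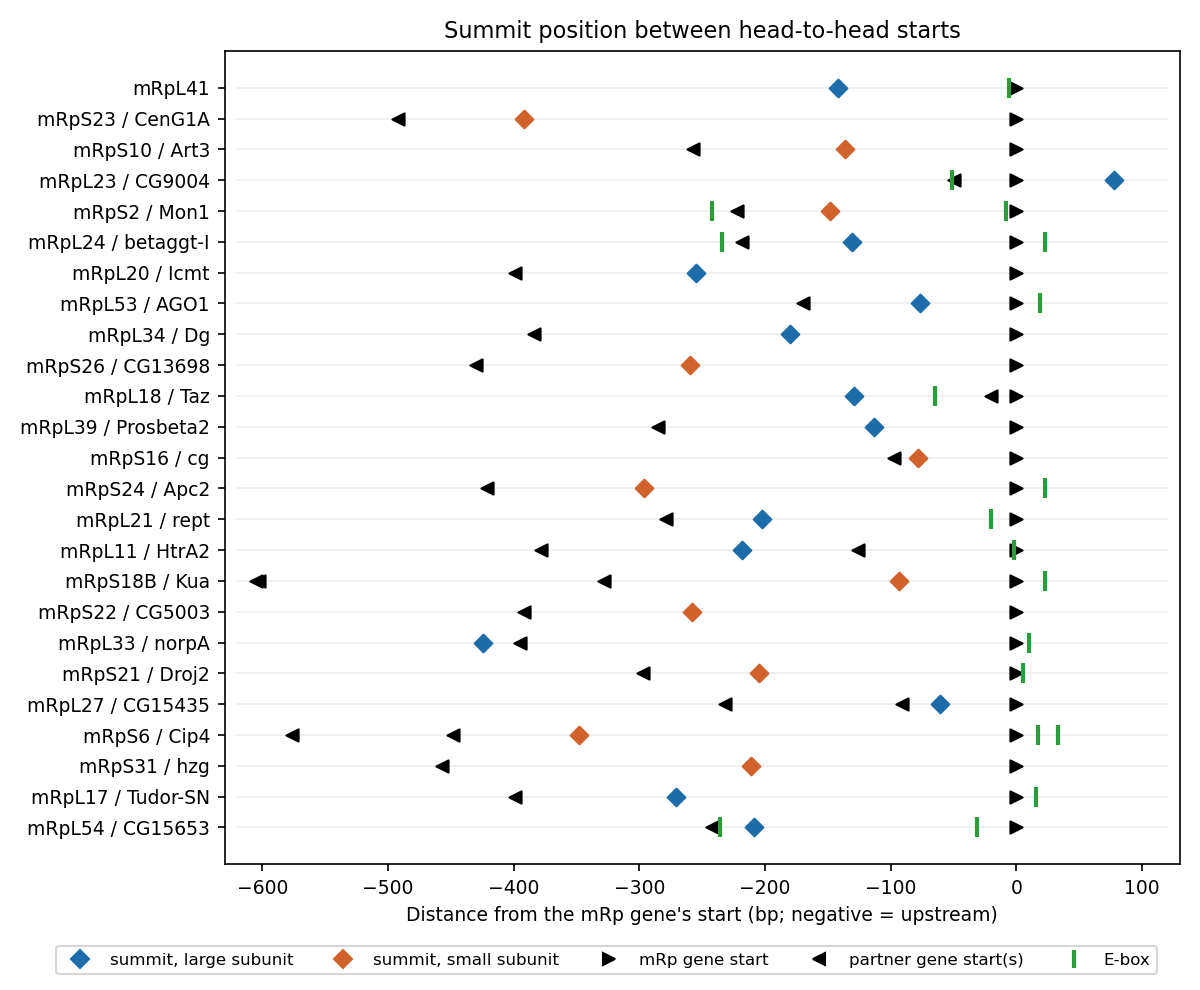
Position of the strongest summit (diamonds) at the 25 bound mRp genes, in bp from the mRp start nearest to the summit (right-pointing triangles), with all starts of the head-to-head partner within 1000 bp (left-pointing triangles) and the E-box CAGCTG (green bars). Rows run from the strongest peak at the top to the weakest. At 20 of the 24 genes with a partner the summit lay between the closest facing starts; the exceptions were mRpL11, mRpL18, mRpL23 and mRpL33. E-boxes are drawn for the promoter window only, from 250 bp upstream to 50 bp downstream of the outermost mRp start.

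Within the bound members the peaks ranged from rank 8 to rank 9269, with a median rank of 2924, against 3378 for the other bound genes. The members' signal had a median of 525.6, against 477.9 for the others. Ranks up to 100 were reached by 4 of 25 members, or 16.0%, against 2.26% of the other bound genes, so that the members' list was led by a few very strong peaks. Over the list as a whole the spread of ranks was close to that of other bound genes. Ranks 1 to 2540 held the strongest peak of 11 of the 25 members, against 40.7% of the other bound genes. The next ranks up to 5080 held 6 members, against 25.2% of the others, those up to 7620 held 6, against 19.6%, and those up to 10160 held 2, against 14.5%.

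The strongest was mRpL41, a mitochondria-specific protein of the large subunit, at rank 8 with a signal of 6371.8. Its ranks were 5, 14 and 6 in replicates 1, 2 and 3, with signals of 2101.8, 1879.2 and 2410.0. Its summit lay 142 bp upstream of its only start. It was thus among the strongest peaks in each replicate, and it was the one bound member without a partner within 500 bp. The small subunit gene mRpS23 followed at rank 12 with a signal of 5917.4, and ranked 12, 16 and 12 in the replicates. Its summit lay 392 bp upstream of mRpS23 and 100 bp from CenG1A, the gene of an Arf GTPase-activating protein.

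The small subunit gene mRpS10, whose protein has a bacterial counterpart, had a peak at rank 25 with a signal of 5067.4, and its replicate ranks were 27, 26 and 25. It was 136 bp upstream of mRpS10 and 121 bp from Art3, which encodes an arginine methyltransferase. The large subunit gene mRpL23 held rank 69 with a signal of 3574.0, and its replicate ranks were 55, 94 and 76. Its summit was the only one downstream of the member's nearest start, at 78 bp in its 5′ UTR, and 128 bp from CG9004. Of the 3 annotated starts of mRpL23, the innermost lay downstream of the summit. These 4 were in the strongest 100 of every replicate as well.

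The next peaks were weaker. At mRpS2, paired with Mon1, which acts in the maturation of endosomes, the rank was 211 and the signal 2202.7, with ranks of 197, 200 and 249 in the replicates. At mRpL24, paired with betaggt-I, the gene of a geranylgeranyl transferase subunit, the rank was 265 and the signal 2030.1, with ranks of 268, 256 and 247. The replicate ranks of mRpS2 and mRpL24 overlapped, and both stayed behind the 4 genes above in every replicate. At mRpL20, paired with Icmt, a methyltransferase of prenylated proteins, the rank was 934, with ranks of 1093, 865 and 1006. At mRpL53 the summit lay 77 bp upstream in an intron of AGO1, the Argonaute of the microRNA pathway, at rank 1172, with ranks of 1041, 1414 and 1269; CG33155 also has a start 77 bp from it.

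The remaining 4 of the 12 strongest were found at ranks 2135 to 2771. They were mRpL34, next to the dystroglycan gene Dg, mRpS26, next to CG13698, mRpL18, next to the tafazzin gene Taz, and mRpL39, next to the proteasome subunit gene Prosbeta2. Their replicate ranks lay between 1850 and 3473. For comparison, the promoter peak of lab itself, 27 bp from a start, held rank 1537 with a signal of 788.3, and ranks 1862, 1694 and 1366 in the replicates. Thus 8 mRp genes had a stronger promoter peak than lab in the reproducible list. Such ranks were not particular to mRp genes. Ranks up to 1000 were reached by 28.0% of the bound members and 20.3% of the other bound genes. Ranks up to 2540 were reached by 11 of 25 members and 40.7% of the others. At mRpS23, mRpS10, mRpS2, mRpL24 and mRpL20 the summit was nearer to the partner's start. At mRpL41, mRpL23 and mRpL53 the mRp start was nearest, with the tie at mRpL53 given above.

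**Figure D3:**
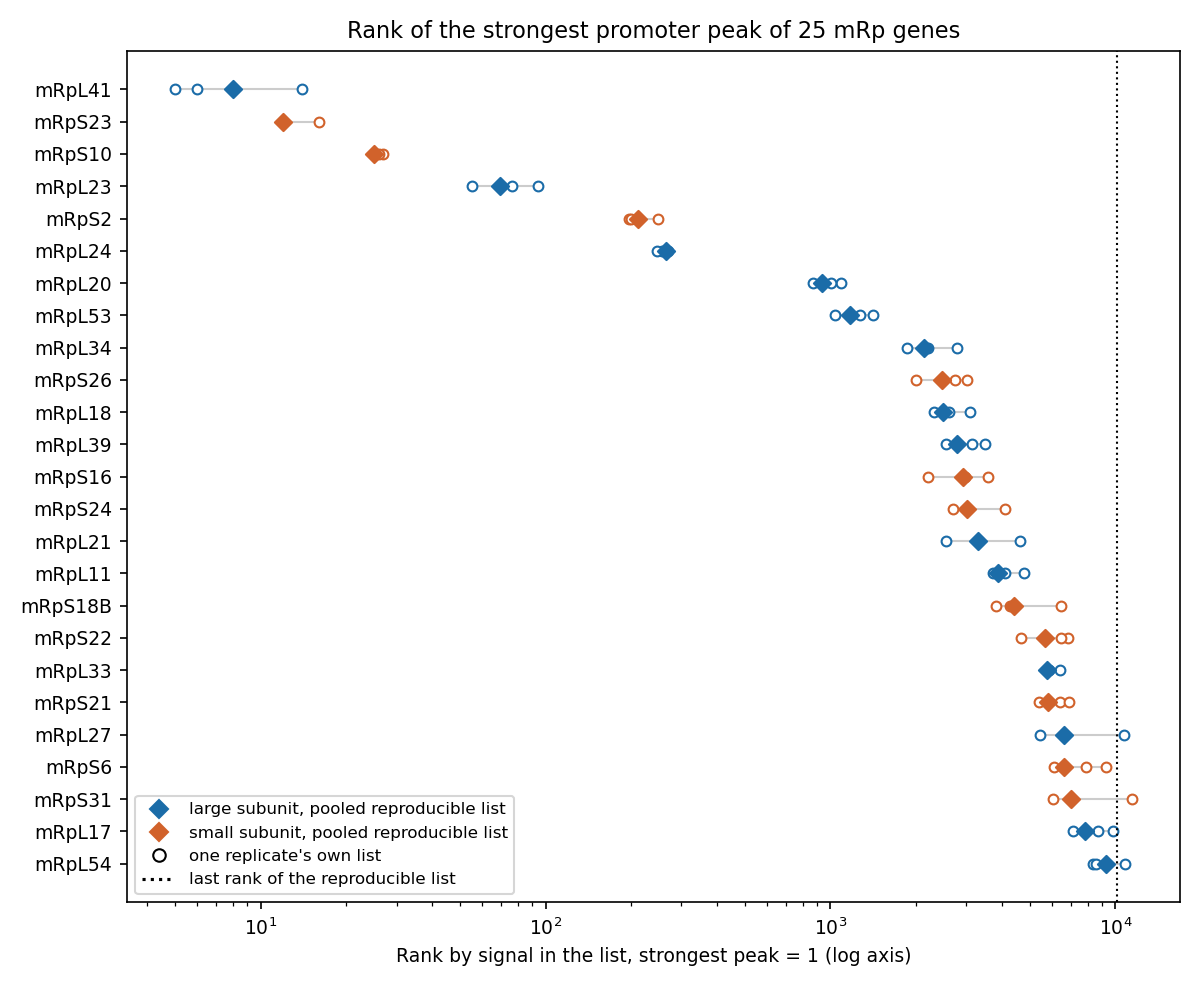
Rank of the strongest promoter peak of the 25 bound mRp genes (log axis, rank 1 the strongest) in the pooled reproducible list (diamonds) and in each replicate's own list (open circles, where a summit lay within 100 bp). The dotted line is the last rank of the reproducible list, 10160. The strongest 8 genes stayed within rank 1414 in every replicate, and 1 replicate lay beyond the line at mRpL27, mRpS31 and mRpL54.

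The other 13 bound members had ranks from 2924 to 9269. With their partners they were mRpS16 with cg, mRpS24 with Apc2, mRpL21 with rept, mRpL11 with HtrA2, mRpS18B with Kua, mRpS22 with CG5003, mRpL33 with norpA, mRpS21 with Droj2, mRpL27 with CG15435, mRpS6 with Cip4, mRpS31 with hzg, mRpL17 with Tudor-SN and mRpL54 with CG15653. The partners had varied known roles: Apc2 acts in Wnt signalling, HtrA2 is a mitochondrial protease, norpA encodes the phospholipase C of phototransduction, and Droj2 is a DnaJ chaperone. The strongest of these was mRpS16, 78 bp from its start and 19 bp from cg, with replicate ranks of 2194, 2959 and 3559. Next came mRpS24 with replicate ranks of 2701, 4101 and 3003, mRpL21 with 2541, 3312 and 4625, and mRpL11 with 3718, 4795 and 4111. The ranks of mRpS16, mRpS24 and mRpL21 overlapped between replicates, whereas mRpS16 and mRpS24 ranked ahead of mRpL11 in each of the 3. At mRpS16 2 summits of the reproducible list lay within the window.

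The 3 members not found in all replicates were among the weakest. The mRpL27 peak, at rank 6604, ranked 5455 in replicate 1 and 10691 in replicate 2 and had no match in replicate 3. The mRpS31 peak, at rank 7010, ranked 11422 in replicate 1 and 6056 in replicate 3 and had no match in replicate 2. The mRpL54 peak, at rank 9269, ranked 10823, 8317 and 8551. In each case at least 1 replicate fell past rank 10160 or lacked the summit.

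No peak of the reproducible list lay within 500 bp of the other 48 members. In the large subunit these were mRpL1, mRpL2, mRpL3, mRpL4, mRpL9, mRpL10, mRpL12, mRpL13, mRpL14, mRpL15, mRpL16, mRpL19, mRpL22, mRpL28, mRpL30, mRpL32, mRpL35, mRpL36, mRpL37, mRpL38, mRpL40, mRpL42, mRpL43, mRpL44, mRpL45, mRpL46, mRpL47, mRpL48, mRpL49, mRpL50, mRpL51, mRpL52 and mRpL55. In the small subunit they were mRpS5, mRpS7, mRpS9, mRpS11, mRpS14, mRpS17, mRpS18A, mRpS18C, mRpS25, mRpS28, mRpS29, mRpS30, mRpS33, mRpS34 and mRpS35. The nearest reproducible summit lay a median of 7206 bp from their starts, against 7475 bp for the other unbound genes. It lay from 670 bp away at mRpL2 to 1589077 bp away at mRpS5 on 3L. In the whole pooled list 4 of the 48 had a summit, mRpL2, mRpL35, mRpL50 and mRpS17, or 8.33%, against 17.0% of the other unbound genes. Among the 29 unbound members with a partner the gap had a median of 136 bp, against 291 bp for the 24 bound ones.

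A partner's peak did not always fall in a member's window. The 53 members had 54 distinct partners, of which 28 were bound, or 51.9%, against 36.7% of other genes with a partner. This count overlaps that of the members, since all 24 bound members with a partner shared their strongest summit with it. At 3 unbound members, mRpL2, mRpL22 and mRpL47, a partner was bound from a summit over 500 bp from the mRp start. The partners were FoxK, a forkhead transcription factor, for mRpL2, if, an integrin subunit, for mRpL22, and both CG8176 and Kdm3, named as a histone demethylase, for mRpL47.

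A different pattern was seen at mRpL32, paired head to head with qless, which acts in coenzyme Q synthesis. It had a summit 137, 159 and 143 bp upstream in replicates 1, 2 and 3, at ranks 3883, 5505 and 3016 with signals of 134.5, 113.8 and 197.3. The nearest summit of the pooled list lay 5106 bp from its start. It was the only one of the 48 with a summit among the strongest 10160 of all 3 replicates. Such cases were few in the lists as a whole. Of 6535 summits among the strongest of replicate 1 that were matched among the strongest of replicates 2 and 3, 30 had no summit of the pooled list within 500 bp, or 0.459%. Support in 2 replicates' own lists was found at 3 unbound members. At mRpL48 a summit lay at the start itself in replicate 1, at rank 6118, and 5 bp from it in replicate 3, at rank 4654. At mRpS11 the summits ranked 5336 in replicate 1 and 5546 in replicate 3, 25 and 41 bp from the start. Neither gene had a summit in replicate 2, even in its whole list. At mRpL35 the ranks were 9447 in replicate 2 and 9441 in replicate 3, just inside the limit of 10160, and 13425 in replicate 1.

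Summits in 1 replicate's own list were found at 7 further unbound members. The highest ranks among these were in replicate 1, 2942 at mRpL37 and 3661 at mRpS7, and neither gene had a summit in the other replicates' whole lists. The remaining 37 unbound members had none in any replicate's strongest 10160 peaks.

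The promoters were searched for 10 short motifs on both strands, from 250 bp upstream to 50 bp downstream of the outermost start. The E-box CAGCTG, which reads the same on both strands, was found in 40 of 73 mRp promoters, or 54.8%, against 17.5% of the other promoters. It was found in bound and in unbound members, in 15 of 25 bound members, or 60.0%, and 25 of 48 unbound ones, or 52.1%. Members with a partner held it in 29 of 53 cases, or 54.7%, and those without in 11 of 20, or 55.0%. Among other genes these shares were 24.6% with a partner and 14.8% without. The large subunit had it at 27 of 47 promoters, or 57.4%, and the small subunit at 13 of 26.

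Most E-box matches lay near the start of transcription. Of 45 matches in mRp promoters 36 began between 50 bp upstream and 44 bp downstream of the start, and 35 members, or 47.9%, held 1 or more there, against 9.10% of the other genes. For genes with a partner these shares were 49.1% and 14.0%. The placing was not particular to mRp genes: of 44 other genes of mitochondrial gene expression, counted below, 20 held it there, or 45.5%. The fullest bin of 25 bp, just downstream of the start, held a match in 19 mRp promoters, or 26.0%, against 2.83% of the other protein-coding genes. The bound members mRpL23, mRpL17 and mRpS6 on the same 4 arms also held a start-proximal E-box and are not shown, but enter the flank counts below. The 26 bases around the E-box are shown for 8 bound members on these arms, on the coding strand with the E-box in capitals and the start not marked: mRpS2 at chr2L:4850415-4850440, mRpL24 at chr2L:4945326-4945351, mRpS24 at chr3R:24163510-24163535, mRpL21 at chr3L:19255069-19255094, mRpL11 at chr3R:14511823-14511848, mRpS21 at chr3R:13381792-13381817, mRpS18B at chr2L:20097218-20097243 and mRpL33 at chrX:4322209-4322234 of dm6. All but mRpL11 are on the minus strand.
mRpS2: cactacccacCAGCTGtttaccaaaa
mRpL24: cagttctcaaCAGCTGattgcaagcc
mRpS24: tcacgtcaatCAGCTGttgctggacg
mRpL21: catgctaacaCAGCTGttcgaaaacg
mRpL11: gcaataccatCAGCTGttgctgcttc
mRpS21: tgatattcatCAGCTGtttagcagta
mRpS18B: tatcggaaaaCAGCTGatccgccggc
mRpL33: taggcgcagtCAGCTGttcttcgttc

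A or T stood on both sides of the E-box at 26 of 36 start-proximal matches in mRp promoters, or 72.2%, against 53.2% of 1344 matches in others. Reading outward from the E-box on each strand, the second base was T in 73.6% of the 72 flanks in mRp promoters and A in 1.39%, against 54.2% T and 12.4% A in other promoters.

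**Figure D4:**
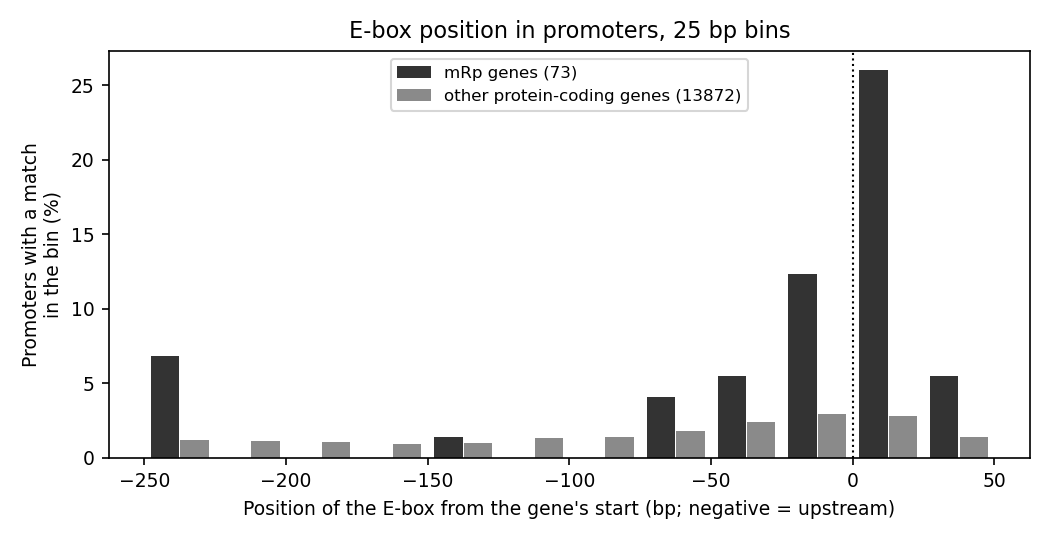
Share of promoters with the E-box CAGCTG beginning in each 25 bp bin (%), by distance from the gene's outermost start in bp, for 73 mRp genes (dark) and 13872 other protein-coding genes (grey). The mRp genes reached 26.0% in the bin just downstream of the start, against 2.83% of the others.

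Among the 15 bound members with the E-box in the promoter window, the centre of the nearest one in that window lay a median of 136 bp from the summit, from 27 to 434 bp, and at 11 of the 15 the distance was over 100 bp. Counting E-boxes outside that window too, it was over 100 bp at 10 of the 15, since mRpL11 had a further match 68.5 bp from its summit. Within 100 bp on each side of the summit the E-box was found at 5 of 25 members, against 13.1% of the 2802 other promoter summits. In the same windows TAATTA, a core that many homeodomains bind, was found at 6 members, or 24.0% against 14.9%. The shares came closer within 200 bp of the summit, at 28.0% against 25.8%, and in whole promoters, at 20.5% of all 73 members against 20.4%. GATA sites were found at 5 members of 25, against 12.6%, and Motif 1 (GGTCACAC), a core promoter element, at 4, or 16.0% against 4.28%. The composite site TGATNGAT was found at none of the 25, and at 2.82% of the other summits. The full DRE, a site of the factor Dref, was found at 2 members of 25, against 5.50%. GAGAG, the core of GAGA factor sites, was found at 5 of 25, against 26.9%, and TATAAA at 8, or 32.0% against 30.2%. The remaining motifs, CACGTG and the DRE core, were found at 1 and 3 of the 25, against 2.36% and 13.5%. In whole promoters the DRE was found at 15 mRp genes, or 20.5%, against 9.30% of the others, and GAGAG at 12, or 16.4% against 29.8%. The DRE shares depended on partners. With a head-to-head partner they were 15.1% of the 53 members and 17.5% of other genes, and without one 7 of 20 members and 6.26%. In the lists counted below, the DRE was found at 28 of 92 cytosolic ribosomal protein genes and 9 of 86 respiratory genes. It was also found at 11 of 44 other genes of mitochondrial gene expression. A match is a description of the letters, and occupancy of a motif was not measured.

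Other groups tied to ribosomes and mitochondria were counted in the same way, with no test of the difference. Of 92 genes for proteins of the cytosolic ribosome, taken by name, 75 were bound, or 81.5%, at a median of 24.0 bp from a start, and 39.1% had a head-to-head partner. RpL7, RpS27 and RpL23A led them at ranks 43, 62 and 99. The E-box was found in 9.78% of their promoters. Of 86 genes for the respiratory chain and ATP synthase 20 were bound, or 23.3%, led by ND-ASHI, ND-MWFE and ND-51 of complex I at ranks 185, 994 and 1287. The E-box was found in 23.3% of their promoters, and 45.3% had a partner.

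Of 44 other genes of mitochondrial gene expression 7 were bound, or 15.9%. PNPase, which encodes the polynucleotide phosphorylase that degrades RNA, had rank 7 with a signal of 6483.9, next to mRpL41 in the list. The others were mtSSB at rank 1000, ArgRS-m at 2253, mTerf5 at 3691, RNaseZ at 4612, rswl at 6788 and Slimp at 6903. No peak was called at tko and bonsai, further proteins of the small mitochondrial subunit that the name rule leaves out. Nor was one called at AlaRS-m, AsnRS-m, AspRS-m, CysRS-m, GluRS-m, IleRS-m, LeuRS-m, MetRS-m, PheRS-m, ProRS-m, SerRS-m, TrpRS-m, TyrRS-m and ValRS-m, which charge mitochondrial tRNAs. The unbound rest were PolG1, PolG2, PolrMT, TFAM, bsf, mEFG1, mEFTs, mEFTu1, mEFTu2, mIF2, mIF3, mRF1, mRRF1, mRRF2, mTTF, mTerf3, mldr, mtDNA-helicase, mtTFB1, mtTFB2 and scu. In this group 21 of the 44 held the E-box in the promoter, or 47.7%, and 22 of the 44 had a partner.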

How the data were processed

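ChIP-seq peak lists of 3 biological replicates of Lab-GFP embryos were used on dm6. Per the deposited file descriptions, the authors made a list of peaks and background from each replicate and from the pooled replicates against 1 control alignment, and a list thresholded by the irreproducible discovery rate (IDR) from these; the sources used here do not give the aligner, peak caller, threshold or depth. Each row carries the authors' signal value and their deposited −log10 q-value, which stood at its highest value, 4.15, for 7046 of the 10160 reproducible peaks and was therefore not used for ranking. Each other list held 30000 rows, no 2 replicates shared an identical row, and all 10160 reproducible peaks were in the pooled list. Lists on the older build were not used.

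Summits were assigned to protein-coding transcript starts of the Ensembl release 115 annotation, within 500 bp and to every gene in reach; 41 genes off the 6 arms were left out. All 74 annotated start codons of the members read ATG in the RefSeq genome. Replicate lists were cut to their strongest 10160 peaks, and summits matched within 100 bp. Values were computed with Python 3.11.15, numpy 2.4.6, pandas 2.3.3 and matplotlib 3.10.9, and the assignment was tested on simulated summits. With 1 group and genes that are not replicates, no test was made. Members, comparison lists, motifs and the alternatives tried (window, list, assignment, start sites, gap, matching, replicates left out) were chosen with earlier results of these data known. The genes named are the 12 members with the strongest peak with their partners, members unbound or not found in all replicates, those at the edges of the window, lab, the 3 strongest of each comparison list and all other genes of mitochondrial gene expression; the remaining bound members are listed too, a choice made after their values were seen. The grouping by bacterial counterparts, the count of summits between closest facing starts, the E-box positions, flanks and printed sequences, and the account of mRpL32, were also chosen after values were seen.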

Additional observations from a re-analysis of the deposited data

How the results depend on the processing

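No paired analysis was possible because there was 1 group. With summits given to the nearest start only, 7 mRp genes were bound, 5 of the large and 2 of the small subunit, 6 were found in all replicates, and the median rank was 2135; this follows from the shared summits. With a window of 250 bp, 6 small subunit genes were bound and 14 members were found in all replicates. With the strongest 5080 reproducible peaks, 7 small subunit genes and 2327 other genes were bound. With starts at most 250 bp apart, 25 members had a partner. Of these 9 were bound, and of the other 48 members 16 were bound. The contrast by partner was thus not seen among members at that limit, where other genes stood at 32.4% with a partner and 24.3% without. With 1000 bp the contrast was 43.1% and 0 of 15 for members, mRpL41 then having a partner. For other genes it was then 35.5% and 19.8%. Leaving out each replicate gave 23 to 26 bound members, 13 to 15 of the large and 10 to 11 of the small subunit, 3029 to 3255 other genes, and 22 to 23 members found in all remaining replicates. Motif counts around summits moved with the window: within 50 bp the E-box was found at 1 member, and within 200 bp at 11. Of 75 alternative values, 55 stayed within 1.5 times the value reported or within the spread of the replicates, and 20 did not. Depth is unknown, so a promoter without a peak is one where none was called, not one shown to be unbound.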
